A study of Mus musculus with 16 samples.

Results

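The 10 genes described here make or read out the iron hormone hepcidin, or take up, carry and release iron. They were chosen by gene symbol from the deposited table of liver RNA, with 1 row per Ensembl gene: Hamp, Hamp2, Bmp6, Id1, Smad7, Tfrc, Tfr2, Hfe, Slc40a1 and Trf, which are 10 of 24082 genes. All 10 passed the filter on low values, as did 12522 genes in all. The choice was made with results of these same data known, so the levels and differences of the 10 genes are given as descriptions without p-values. Calls of these genes (defined below under processing), including those in fits without 1 library, are also description and give no support of their own.

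The RNA came from the livers of 16 female C57Bl6/J mice, aged 9 to 11 weeks, in 4 groups of 4. Pair Vehicle mice received the Pair diet, a Lieber-DeCarli liquid diet in which maltose dextrin replaced the calories of ethanol, without drug. Pair IMC mice received that diet with Iodomethylcholine (IMC) at 0.06% wt/wt, a small molecule that inhibits the choline TMA lyase CutC of gut bacteria. EtOH Vehicle mice received the Chronic Ethanol Diet, in which ethanol rose to 6% vol/vol over 25 days, without drug. EtOH IMC mice received the Chronic Ethanol Diet with IMC at the same dose. By the study's description, the mice given both IMC and ethanol ate less and weighed less, so IMC and lower intake cannot be told apart in that group. The study also marks a body weight difference between pair-fed mice with and without IMC, so IMC and body weight cannot be told apart there. Library numbers are taken from the sample titles and name the mice below. They set Pair IMC and EtOH Vehicle (numbers 1 to 8) apart from Pair Vehicle and EtOH IMC (numbers 9 to 16), so each comparison of 2 groups below also compares low with high library numbers. Ethanol-fed mice have odd numbers and pair-fed mice even ones, so diet and odd or even number cannot be told apart.

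Each library held between 9632659 and 12601199 reads on genes, and the 10 genes took between 1.51% and 2.58% of them. Levels are normalized counts after all 16 libraries had been brought to one scale, and SDs are over 4 mice. The summed level of 7 hepatocyte markers lay between 981262 and 1790686 in every library, so the libraries had the RNA of liver parenchyma. The summed level of 7 Kupffer cell markers overlapped between all groups (between 2321 and 6797). That of 8 sinusoidal endothelial markers was higher in EtOH Vehicle (between 5240 and 5996) than in Pair Vehicle (between 4452 and 5041), without overlap, and these groups each overlapped both IMC groups. In bulk RNA of this kind, fewer cells of a type and less RNA per cell cannot be told apart.

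Hepcidin, the product of Hamp in hepatocytes, binds the iron exporter ferroportin (Slc40a1) on the cell surface and causes its breakdown, which lowers the entry of iron into plasma. Transcription of Hamp is driven mainly by bone morphogenetic proteins (BMPs), which signal through receptors and SMAD proteins, and by interleukin 6 through STAT3. The same BMP signal switches on Id1 and the feedback inhibitor Smad7. A separate control acts on RNA: when iron is scarce, iron regulatory proteins bind hairpins in transcripts, protecting the transcript of transferrin receptor 1 (Tfrc) and blocking translation of ferritin and ferroportin. Alcohol drinking is known to lower hepatic hepcidin.

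The mouse has a pair of hepcidin genes, and the sequences before their starts are shown because the levels of these genes went separate ways. A link between these sequences and the levels was not tested. Hamp lies at chr7:30942368-30944032 and Hamp2 at chr7:30922372-30924681, both on the minus strand of GRCm38. The windows below hold the 250 bases before each start in RefSeq (build GRCm38.p6, minus strand, chr7:30944030-30944279 for Hamp and chr7:30924182-30924431 for Hamp2). Capitals mark GGCGCC, the core of the BMP-responsive element, and TTCNNNGAA, the form bound by STAT proteins. Each motif reads the same on both strands, and the matches do not overlap.
Hamp: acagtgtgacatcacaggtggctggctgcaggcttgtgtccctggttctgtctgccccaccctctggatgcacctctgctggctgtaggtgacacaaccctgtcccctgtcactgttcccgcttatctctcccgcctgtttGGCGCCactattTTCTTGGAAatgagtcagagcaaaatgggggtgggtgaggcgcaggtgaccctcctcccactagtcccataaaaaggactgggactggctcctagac
Hamp2: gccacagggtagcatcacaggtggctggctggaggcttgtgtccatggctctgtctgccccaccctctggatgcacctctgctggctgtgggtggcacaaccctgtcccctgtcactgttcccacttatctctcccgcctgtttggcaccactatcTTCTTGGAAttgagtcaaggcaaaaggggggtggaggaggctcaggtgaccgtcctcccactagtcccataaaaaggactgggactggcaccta

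GGCGCC stood at -109 in the Hamp window and was absent from that of Hamp2, where the substitution G145A (counted from 1 at the 5′ end of the Hamp window) falls inside it. TTCNNNGAA stood at -97 in Hamp and at -94 in Hamp2. Of 32851 RefSeq promoters, 9.59% held GGCGCC and 7.02% held TTCNNNGAA within the same 250 bases. The windows were identical at 91.9% of aligned bases. The Hamp window overlaps the first annotated Hamp exon by 3 bases. The Hamp2 window lies within the annotated gene but in no exon, and the non-coding gene Gm44662 is annotated across both on the opposite strand.

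The transcripts of Hamp and Hamp2 were identical at 94.6% of aligned bases, which bears on how well reads tell them apart. Of 311 windows of 100 bases in the Hamp transcript, 0 occurred unchanged in that of Hamp2, and the longest shared run was 87 bases. With reads of 100 bases, as the labels give them, each full-length read on either transcript therefore held at least 1 difference, but reads shortened by trimming could be shared. Levels of the pair are uncertain to that extent, and it was not stated whether reads were counted by strand.

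Iron responsive hairpins were searched only in the transcripts of Tfrc, Slc40a1, Fth1 and Ftl1. The 7 found are shown because their place in the untranslated parts (UTRs) differs between Tfrc and the other genes searched. Each is 17 bases long, starts with the bulged c and carries the loop CAGTGN in capitals between 5 paired bases on each side. N had to be A, C or T and all 5 pairs were required, so hairpins with an imperfect stem would be missed. The Tfrc transcript held 4 in its 3′ UTR, and Slc40a1, Fth1 and Ftl1 each held 1 in the 5′ UTR (GRCm38).
Tfrc (chr16:32631225-32631241, plus strand): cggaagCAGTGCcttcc
Tfrc (chr16:32631604-32631620, plus strand): cgggagCAGTGTcttcc
Tfrc (chr16:32631669-32631685, plus strand): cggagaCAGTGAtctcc
Tfrc (chr16:32631716-32631732, plus strand): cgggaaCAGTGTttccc
Slc40a1 (chr1:45925471-45925487, minus strand): cagctaCAGTGTtagct
Fth1 (chr19:9982738-9982754, plus strand): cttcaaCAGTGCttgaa
Ftl1 (chr7:45459785-45459801, minus strand): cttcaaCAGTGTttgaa

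Per kilobase of exon, the levels of the 10 genes in Pair Vehicle spanned from Trf, the plasma iron carrier transferrin, at 59547 ± 10476 normalized counts per kilobase, down to Bmp6, a BMP ligand made mainly by liver sinusoidal endothelial cells, at 12.4 ± 3.87. Hamp followed Trf at 20947 ± 9555, ahead of Hamp2 at 10348 ± 4007. The lengths were those of all annotated exons, 410 bases for Hamp and 583 for Hamp2. The Hamp2 transcript compared above had 420 bases, so the gap between the pair depends on the length used. Transferrin receptor 2 (Tfr2), a sensor of iron-loaded transferrin on hepatocytes, stood at 993 ± 131 and was followed by Slc40a1 at 286 ± 66.0. Hfe, a partner of the transferrin receptors, stood at 157 ± 8.72, Id1 at 120 ± 38.9, Tfrc at 80.2 ± 23.6 and Smad7 at 42.9 ± 15.1. The SDs of Hamp and Hamp2 reached into each other, as did those of each pair of neighbours from Hfe down to Smad7. These are levels per kilobase, and all levels below are normalized counts per gene.

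**Figure D1:**
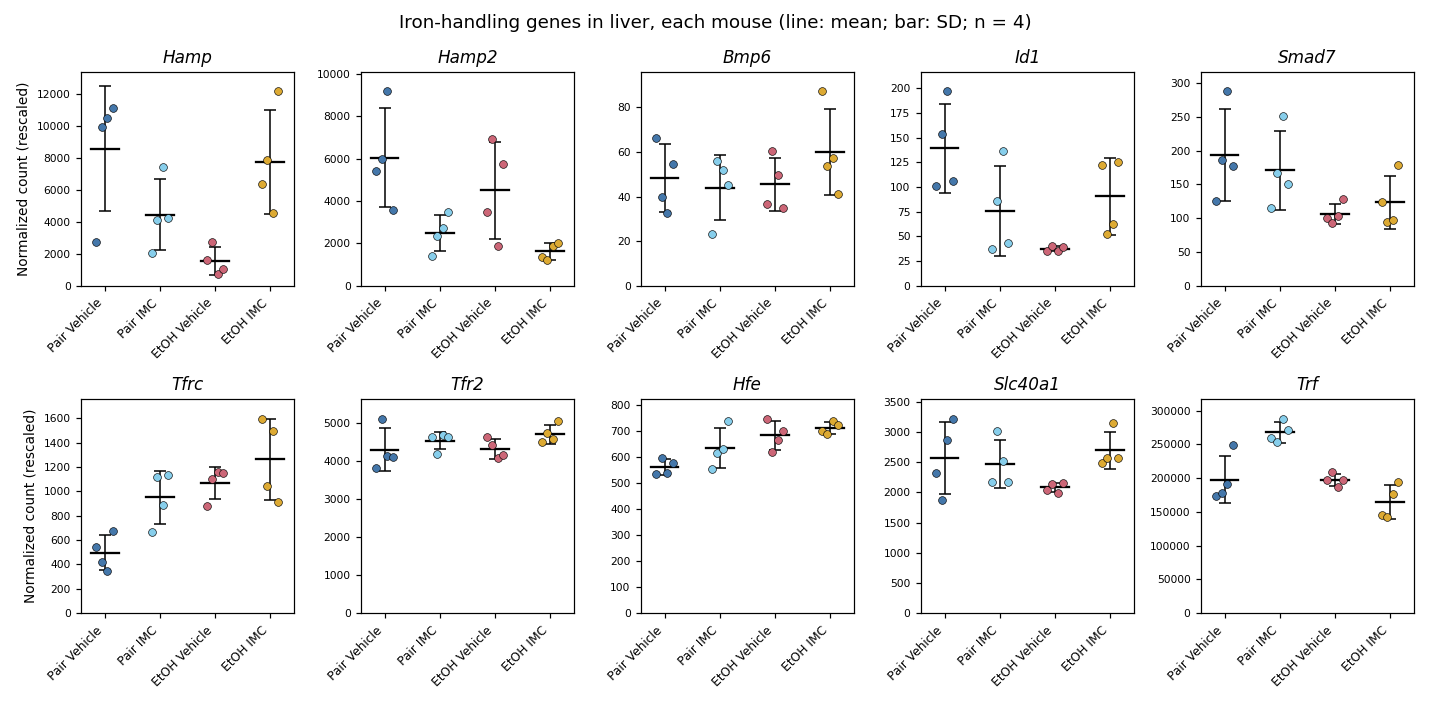
Normalized counts (rescaled, linear axes from 0) of the 10 genes in each mouse, by group; points are mice, lines are group means and bars are SDs of 4 mice. EtOH Vehicle mice are the lowest group for Hamp and Id1, Pair Vehicle mice the lowest for Tfrc, and the groups of Tfr2 and Bmp6 overlap.

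Hamp was low in ethanol-fed mice without drug and high in ethanol-fed mice given IMC. In Pair Vehicle, Hamp stood at 2757 normalized counts in library 10, 9942 in library 12, 10532 in library 14 and 11122 in library 16. In EtOH Vehicle it stood at 1615, 2723, 752 and 1039 in libraries 1, 3, 5 and 7. The highest ethanol-fed mouse without drug therefore lay just below the lowest Pair Vehicle mouse, library 10, which stood far under the other 3 mice of its group.

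With IMC, the levels of Hamp in ethanol-fed mice were 6369, 7897, 4564 and 12189 in libraries 9, 11, 13 and 15. All 4 exceeded every EtOH Vehicle mouse. In Pair IMC the levels were 2086, 4112, 7414 and 4228 in libraries 2, 4, 6 and 8, which overlapped Pair Vehicle. From high to low, the group means were 8588 ± 3917 in Pair Vehicle, 7755 ± 3255 in EtOH IMC, 4460 ± 2201 in Pair IMC and 1533 ± 871 in EtOH Vehicle, and neighbours in this order overlapped.

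On the log2 scale, Hamp differed by -2.47 (SE 0.46) with ethanol in vehicle mice and by 2.42 (SE 0.46) with IMC in ethanol-fed mice. In pair-fed mice the difference with IMC was -0.89 (SE 0.46), and with ethanol in IMC mice it was 0.84 (SE 0.46). The IMC effects on Hamp in the 2 diets differed by 3.31 (SE 0.66). The calls of Hamp for ethanol in vehicle mice and for IMC in ethanol-fed mice stood in each of the 16 fits that left out 1 library. The call of the difference between diets was lost without EtOH Vehicle library 5 (3.03), EtOH Vehicle library 7 (3.18), Pair Vehicle library 12 (3.18) or EtOH IMC library 15 (3.06).

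In these 4 contrasts and in the difference between diets, the groups and the library numbers cannot be told apart. Hamp ranged from 752 to 7414 in libraries 1 to 8 and from 2757 to 12189 in libraries 9 to 16. Averages that balance low and high numbers were smaller. The effects in each average had opposite signs, so this follows by arithmetic and does not separate groups from library numbers. IMC averaged over both diets gave 0.76 (SE 0.33) for Hamp, and ethanol averaged over vehicle and IMC gave -0.81 (SE 0.33). Within libraries 1 to 8, EtOH Vehicle overlapped Pair IMC with the lower mean, and within libraries 9 to 16, EtOH IMC overlapped Pair Vehicle.

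Beside Hamp, markers of red blood cells moved between the groups. The summed level of 7 erythroid markers lay between 50.4 and 134 in EtOH IMC, between 132 and 369 in EtOH Vehicle, between 184 and 306 in Pair Vehicle and between 216 and 390 in Pair IMC. None of the 7 was at 0 in every library. The summed level of 6 stellate cell markers lay between 4265 and 5039 in EtOH Vehicle, above the other groups, whose libraries lay between 2755 and 4153. The part of either cell type in the Hamp values was not tested.

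**Figure D2:**
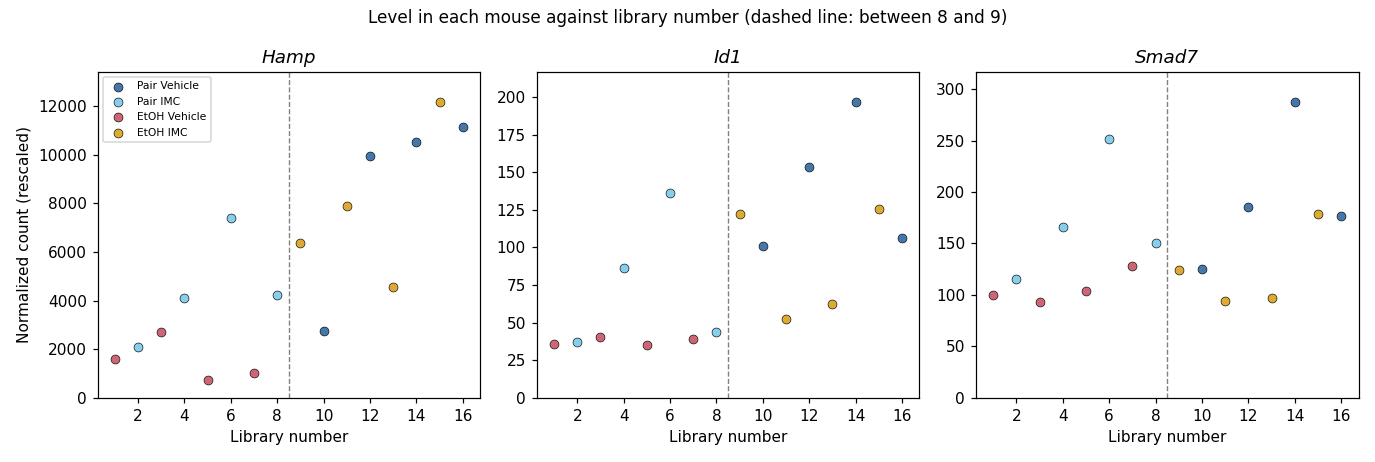
Normalized counts (rescaled, linear axes from 0) of Hamp, Id1 and Smad7 in each mouse against the library number from the sample titles; colours are groups and the dashed line separates numbers 1 to 8 from 9 to 16. Hamp lies between 752 and 7414 left of the line and between 2757 and 12189 right of it.

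Hamp2 did not share the pattern of Hamp and was lower with IMC in both diets. In Pair Vehicle, Hamp2 stood at 5427, 5967, 9177 and 3560 normalized counts in libraries 10, 12, 14 and 16. In Pair IMC it stood at 1419, 2327, 2721 and 3503 in libraries 2, 4, 6 and 8, each below the lowest Pair Vehicle mouse, though library 8 only just. In EtOH Vehicle the levels were 3479, 6937, 1856 and 5746, and in EtOH IMC 1342, 1229, 1880.4 and 2024, so that these groups overlapped through EtOH Vehicle library 5.

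The difference in Hamp2 with IMC was -1.27 (SE 0.36) in pair-fed mice and -1.34 (SE 0.36) in ethanol-fed mice, and the IMC effects in the 2 diets differed by -0.07 (SE 0.51). Averaged over both diets it was -1.30 (SE 0.25), a contrast balanced over library numbers, and its call stood in each of the 16 fits without 1 library. The call in pair-fed mice was lost without Pair IMC library 2, 4 or 6 or Pair Vehicle library 10, 12 or 14, where the values lay between -1.33 and -1.02, and the call in ethanol-fed mice was lost without EtOH Vehicle library 3 (-1.07). With ethanol, Hamp2 differed by -0.51 (SE 0.36) in vehicle mice and by -0.58 (SE 0.36) in IMC mice.

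The ratio of Hamp to Hamp2 within a mouse is free of the library scale. It was 0.464, 0.393, 0.405 and 0.181 in the EtOH Vehicle libraries 1, 3, 5 and 7, and 4.74, 6.43, 2.43 and 6.02 in the EtOH IMC libraries 9, 11, 13 and 15. All EtOH Vehicle mice thus had more Hamp2 than Hamp counts, and all EtOH IMC mice more Hamp than Hamp2. In the pair-fed groups the mean ratio was 1.61 ± 1.11 without and 1.79 ± 0.663 with IMC, and library 10 of Pair Vehicle, at 0.508, was the only pair-fed mouse with less Hamp than Hamp2. The summed count of both genes was 14621 ± 4795 in Pair Vehicle, 6952 ± 2762 in Pair IMC, 6037 ± 2963 in EtOH Vehicle and 9373 ± 3407 in EtOH IMC.

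**Figure D3:**
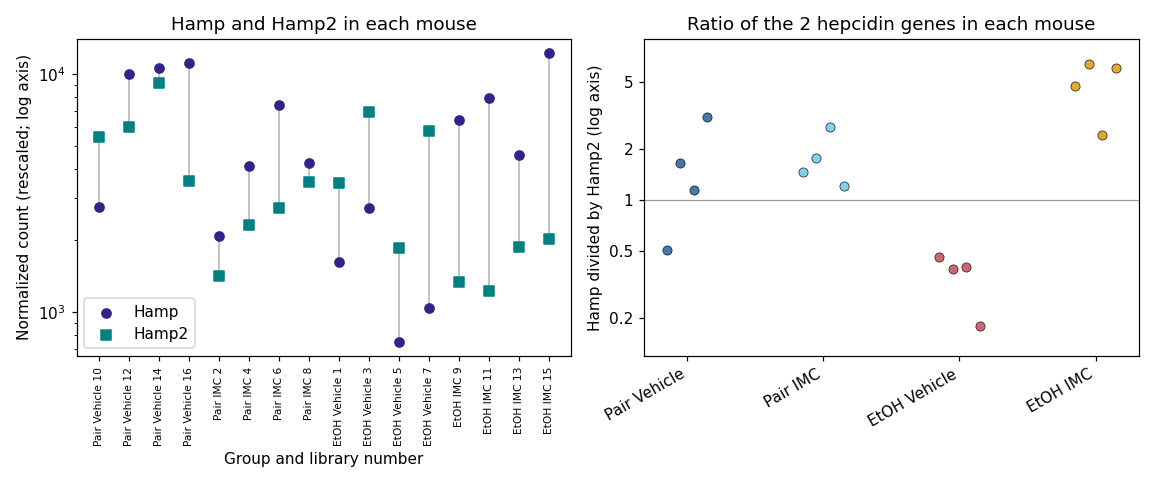
Left, normalized counts (rescaled, log axis) of Hamp (circles) and Hamp2 (squares) in each mouse, joined by a line; right, the ratio of Hamp to Hamp2 in each mouse by group (log axis, line at 1). The 4 EtOH Vehicle mice lie between 0.181 and 0.464 and the 4 EtOH IMC mice between 2.43 and 6.43.

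Id1, a BMP target that encodes an inhibitor of DNA binding, followed the order of Hamp in its group means, and neighbours in this order overlapped. In Pair Vehicle it stood at 101, 154, 197 and 106 normalized counts in libraries 10, 12, 14 and 16. In EtOH Vehicle it stood at 35.6, 40.4, 35.4 and 39.1 in libraries 1, 3, 5 and 7, the tightest group of all. In EtOH IMC it stood at 122, 52.2, 62.3 and 126 in libraries 9, 11, 13 and 15, all above EtOH Vehicle.

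Pair IMC mice spread widely for Id1, from 37.4 in library 2 to 136 in library 6. The log2 difference of Id1 with ethanol in vehicle mice was -1.81 (SE 0.35), with its call present in each of the 16 fits without 1 library. With IMC it was 1.14 (SE 0.35) in ethanol-fed mice, a call lost without any of EtOH Vehicle libraries 1, 3, 5 and 7 or EtOH IMC libraries 9 and 15, with values between 0.95 and 1.18. In pair-fed mice it was -1.0 (SE 0.35). The IMC effects on Id1 differed between diets by 2.15 (SE 0.50), but that call stood in only 4 of 16 fits without 1 library and was absent with no filter on low values (2.15) and from edgeR with TMM (2.14) or upper-quartile (2.15) scaling. It was lost without EtOH Vehicle libraries 1, 3, 5 or 7, Pair IMC libraries 2 or 8, EtOH IMC libraries 9, 13 or 15, or Pair Vehicle libraries 12, 14 or 16, with values between 1.88 and 2.29. Averaged over both diets, the difference of Id1 with IMC was 0.07 (SE 0.25), and with ethanol averaged over vehicle and IMC it was -0.74 (SE 0.25).

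Smad7, the inhibitory SMAD of the same route, had less contrast between groups. It stood at 125, 186, 288 and 177 normalized counts in Pair Vehicle libraries 10, 12, 14 and 16 and at 99.8, 93.5, 104 and 128 in EtOH Vehicle libraries 1, 3, 5 and 7, and the groups overlapped between libraries 10 and 7. The difference with ethanol was -0.81 (SE 0.25) in vehicle mice and -0.46 (SE 0.25) in IMC mice. The first was called, but in only 7 of 16 fits without 1 library, and not on the deposited scale (-0.62) or with no filter on low values (-0.81). That call of Smad7 was lost without EtOH Vehicle libraries 1, 3, 5 or 7, Pair IMC library 4, EtOH IMC library 9, or Pair Vehicle libraries 12, 14 or 16, with values between -0.90 and -0.60. The IMC difference of Smad7 was -0.18 (SE 0.25) on the Pair diet and 0.18 (SE 0.25) on ethanol.

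Bmp6, the ligand that iron raises in liver, was low in every group and stood in no order that exceeded the spread. Its means were 48.4 ± 15.1 normalized counts in Pair Vehicle, 44.0 ± 14.6 in Pair IMC, 45.5 ± 12 in EtOH Vehicle and 59.9 ± 19.4 in EtOH IMC. Across mice the lowest was 23.2 in Pair IMC library 2 and the highest 87.2 in EtOH IMC library 9. The difference of Bmp6 with ethanol in vehicle mice was -0.07 (SE 0.29), where Hamp and Id1 were lowest.

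Tfrc, the receptor through which cells take up iron-loaded transferrin, was lowest in Pair Vehicle and higher with either IMC or ethanol. It stood at 547, 421, 343 and 675 normalized counts in Pair Vehicle libraries 10, 12, 14 and 16. In Pair IMC the levels were 664, 1115, 891 and 1131 in libraries 2, 4, 6 and 8, and in EtOH Vehicle they were 879, 1101, 1159.9 and 1148 in libraries 1, 3, 5 and 7. Pair Vehicle overlapped Pair IMC only through libraries 16 and 2 and did not overlap EtOH Vehicle.

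EtOH IMC mice had Tfrc levels of 1599, 1041, 1498 and 915 in libraries 9, 11, 13 and 15, overlapping EtOH Vehicle. The log2 difference of Tfrc was 0.95 (SE 0.21) with IMC in pair-fed mice and 1.15 (SE 0.21) with ethanol in vehicle mice. It was 0.21 (SE 0.21) with IMC in ethanol-fed mice and 0.40 (SE 0.21) with ethanol in IMC mice. The IMC effects on Tfrc differed between diets by -0.74 (SE 0.30), a difference that was not called. Averages balanced over low and high library numbers gave 0.58 (SE 0.15) with IMC and 0.78 (SE 0.15) with ethanol. The calls of Tfrc with IMC in pair-fed mice, averaged over diets, and with ethanol in vehicle mice stood in each of the 16 fits without 1 library.

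Tfr2 and Hfe, which sense transferrin saturation upstream of hepcidin, were steadier. Tfr2 lay between 3819.6 and 5129 normalized counts over the 16 mice, with group means between 4304 and 4720.4, and its 6 log2 differences lay between 0.01 and 0.13. Hfe had means of 562 ± 31.2 in Pair Vehicle, 635 ± 75.8 in Pair IMC, 683 ± 53.9 in EtOH Vehicle and 713 ± 23.2 in EtOH IMC.

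In single mice, Hfe stood at 535, 598, 537 and 579 in Pair Vehicle libraries 10, 12, 14 and 16 and at 748, 620.3, 664 and 698 in EtOH Vehicle libraries 1, 3, 5 and 7, without overlap. The difference of Hfe with ethanol in vehicle mice was 0.28 (SE 0.09). It was called in only 7 of 16 fits without 1 library, and not with no filter on low values or with only the libraries of the comparison (0.28 in both). On the deposited values it was 0.47 and called. That call was lost without EtOH Vehicle libraries 1, 5 or 7, Pair IMC libraries 4 or 6, EtOH IMC library 13, or Pair Vehicle libraries 10, 14 or 16, with values between 0.23 and 0.29.

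Slc40a1, ferroportin, was tightly grouped in EtOH Vehicle and higher with IMC in ethanol-fed mice without passing the threshold. In EtOH Vehicle it stood at 2043, 2137, 1995 and 2162 normalized counts in libraries 1, 3, 5 and 7, and in EtOH IMC at 2496, 2571, 3153 and 2568 in libraries 9, 11, 13 and 15. The groups did not overlap, and the difference was 0.37 (SE 0.14), which passed the threshold with only the libraries of the comparison. With ethanol in vehicle mice it was -0.27 (SE 0.14), and in pair-fed mice Slc40a1 differed with IMC by -0.04 (SE 0.14).

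Trf was highest in Pair IMC and lowest in EtOH IMC. It stood at 259907, 252766, 288201 and 271326 normalized counts in Pair IMC libraries 2, 4, 6 and 8, above all 4 Pair Vehicle mice (173056 to 248629). In EtOH IMC it stood at 145628, 142240, 176084 and 194430 in libraries 9, 11, 13 and 15, all below Pair IMC. These EtOH IMC mice overlapped Pair Vehicle and EtOH Vehicle (186822 to 208360). With IMC in ethanol-fed mice, Trf differed by -0.27, which was not called. The difference of Trf with ethanol in IMC mice was -0.71 (SE 0.20). Its call was lost on the deposited values (-0.52), with no filter on low values, with only the libraries of the comparison, and without Pair IMC library 6 (-0.68).

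In pair-fed mice the difference of Trf with IMC was 0.45 (SE 0.20), not called by limma but called by edgeR with TMM and by DESeq2 (0.44 in both), and with ethanol in vehicle mice 0.01 (SE 0.20). The summed hepatocyte markers also stood lower in EtOH IMC (between 981262 and 1283827) than in Pair IMC (between 1660838 and 1766970). In Pair Vehicle they lay between 1123018 and 1790686, overlapping Pair IMC, and in EtOH Vehicle between 1101978 and 1210614, overlapping EtOH IMC. Of the 7 markers, 0 were called with ethanol in IMC mice, and their median log2 difference was -0.19. The part of these markers in the Trf values was not tested.

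**Figure D4:**
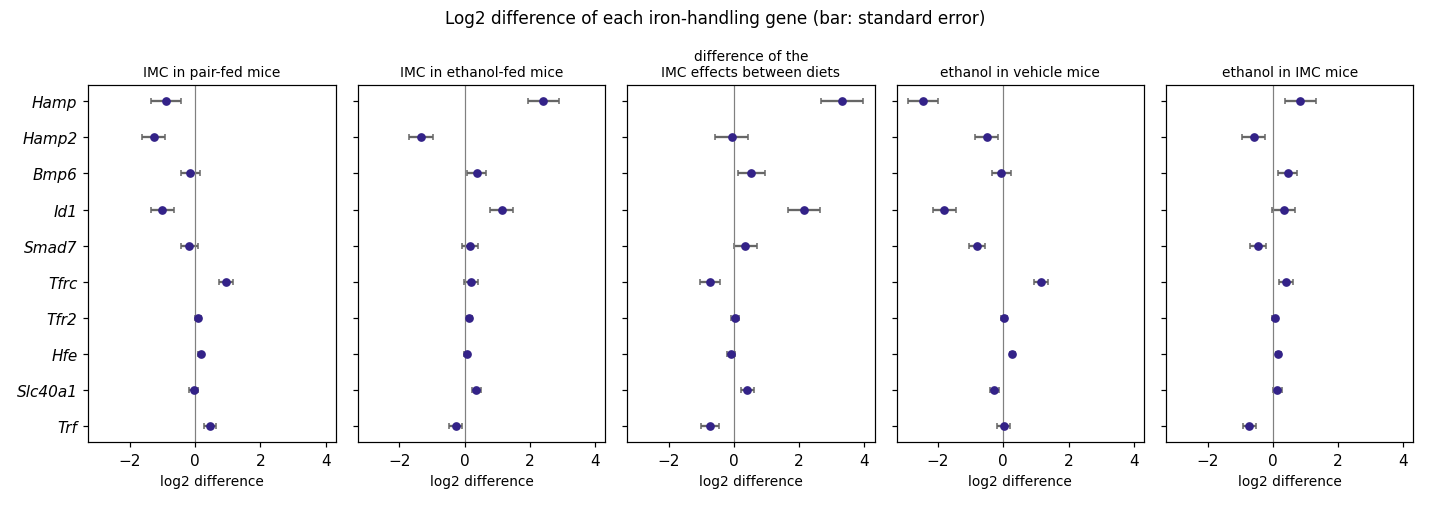
Log2 differences (points) with standard errors (bars) of the 10 genes in 5 contrasts, on a shared axis with a line at 0. Hamp differs by 2.42 with IMC in ethanol-fed mice and by -2.47 with ethanol in vehicle mice, and Hamp2 is lower with IMC in both diets.

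Counted over the 10 genes, 2 were called with IMC in pair-fed mice (Hamp2 lower, Tfrc higher), where 9.49% of all genes tested were called. In ethanol-fed mice IMC gave 3 (Hamp and Id1 higher, Hamp2 lower), where 21.5% of all genes were called, and averaged over both diets 2 (Hamp2 lower, Tfrc higher), where 28.2% were called. For the difference of the IMC effects between diets, 2 were called (Hamp and Id1), where 1.11% of all genes were called. Ethanol in vehicle mice gave 5 (Hamp, Id1 and Smad7 lower, Tfrc and Hfe higher), where 11.9% of all genes were called, and ethanol in IMC mice gave 1 (Trf lower), where 16.5% were called. The last count turned to 3 higher and 0 lower on the deposited scale (Tfrc 0.59, Tfr2 0.25, Hfe 0.37), and to 0 with no filter on low values or with only the libraries of the comparison. Nothing is read from these counts, since the genes were chosen on these contrasts.

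Groups did not overlap for 2 of the 10 genes with IMC in pair-fed mice (Hamp2, Trf), beside 14.3% of all genes tested, and for 3 with IMC in ethanol-fed mice (Hamp, Id1, Slc40a1), beside 25.3%. With ethanol in vehicle mice they did not overlap for 4 (Hamp, Id1, Tfrc, Hfe), beside 19% of all genes, and with ethanol in IMC mice for 1 (Trf), beside 19.2%. The comparisons share groups of mice, so their values for a gene are not independent of each other. On the deposited scale, which differs between the diets, ethanol-fed libraries were higher by 0.19 (log2) in the median of all genes, against -0.0014 after rescaling. The 1491 genes called with ethanol in vehicle mice (795 higher, 696 lower) became 3000 there (2801 higher, 199 lower), and the 2064 called with ethanol in IMC mice (986 higher, 1078 lower) became 3624 (3183 higher, 441 lower).

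Other genes of iron and heme handling were read from 4 lists of 71 genes in all, of which 70 were in the table and 68 were tested. Erfe, the erythroid hormone that lowers hepcidin, stood between 0 and 3.50 normalized counts, and lactoferrin, Ltf, between 0 and 12.6, too low to test; these and Socs3 below were named after their values were seen. IMC in pair-fed mice changed 5 of the 68 genes (4 higher, 1 lower), or 7.35% beside 9.49% of all genes, and IMC in ethanol-fed mice 17 (12 higher, 5 lower), or 25% beside 21.5%. IMC averaged over both diets changed 19 (13 higher, 6 lower), or 27.9% beside 28.2%. Ethanol changed 13 in vehicle mice (7 higher, 6 lower), or 19.1% beside 11.9%, and 12 in IMC mice (8 higher, 4 lower), or 17.6% beside 16.5%. The shares with IMC, and with ethanol in IMC mice, were near those of all genes. For the difference of the IMC effects between diets, 0 were called by limma, with 14 at an unadjusted p under 0.05 (20.6%, beside 15.3% of all genes) and 3 called by DESeq2. The median log2 difference of the 68 genes lay between -0.03 and 0.07 in the 6 contrasts, beside medians of all genes between -0.0072 and 0.0034.

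Among 20 tested genes of the BMP-SMAD route, 1 was called with IMC in pair-fed mice, 4 with IMC in ethanol-fed mice and 3 with ethanol in vehicle mice. Of all genes tested, 9.49%, 21.5% and 11.9% were called in these contrasts, so no response of the route is read from the counts. Atoh8, a BMP target that encodes a transcription factor, stood at 203, 343, 231 and 157 normalized counts in Pair Vehicle libraries 10, 12, 14 and 16, at 151, 117, 107 and 88.2 in EtOH Vehicle libraries 1, 3, 5 and 7 and at 251, 279, 179 and 304 in EtOH IMC libraries 9, 11, 13 and 15. All EtOH Vehicle mice were below both of the other groups. Atoh8 fell with ethanol in vehicle mice (-0.97, SE 0.22, adjusted p = 0.0093) and rose with IMC in ethanol-fed mice (1.12, SE 0.22, adjusted p = 0.0019), and it rose with IMC averaged over both diets (0.68, SE 0.16, adjusted p = 0.0035).

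Smad9, the SMAD also called SMAD8, rose with IMC in ethanol-fed mice (1.18, SE 0.29, adjusted p = 0.0077), from 61.0 ± 12.4 to 140 ± 29.2 normalized counts. Bmp2, an endothelial BMP ligand that also drives hepcidin, rose with IMC in ethanol-fed mice (0.63, SE 0.15, adjusted p = 0.0063), from 241 ± 37.3 to 373 ± 49.3, and was higher with ethanol in IMC mice (0.88, SE 0.15, adjusted p = 0.00093). In pair-fed mice Bmp2 differed with IMC by -0.19 (SE 0.15, adjusted p = 0.47). The BMP target Id4 fell with IMC in pair-fed mice (-1.04, SE 0.24, adjusted p = 0.014), from 43.7 ± 11.2 to 20.4 ± 3.72. The shared SMAD, Smad4, fell with ethanol in vehicle mice (-0.38, SE 0.10, adjusted p = 0.018) and in IMC mice (-0.33, SE 0.10, adjusted p = 0.024). The first call of Smad4 was lost without Pair Vehicle library 10 (-0.31), and the second without Pair IMC library 2, 4 or 6 or EtOH IMC library 15, with values between -0.33 and -0.26. On the deposited scale both were lost (-0.19 and -0.14).

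Tmprss6, the liver protease that cuts the BMP co-receptor hemojuvelin and so restrains hepcidin, stood at 5576 ± 200 normalized counts in Pair Vehicle and 6974 ± 156 in EtOH Vehicle. It rose with ethanol in vehicle mice (0.32, SE 0.07, adjusted p = 0.0093) and was lower with IMC in ethanol-fed mice (-0.22, SE 0.07, adjusted p = 0.040). The latter call of Tmprss6 was lost without EtOH Vehicle library 1, 3, 5 or 7, Pair IMC library 6, or EtOH IMC library 9, 11 or 13, with values between -0.24 and -0.19. Hemojuvelin itself, Hjv, stood at 1127 ± 68.4 in EtOH Vehicle and 896 ± 128 in EtOH IMC (-0.34, SE 0.15, adjusted p = 0.12). Id3, a relative of Id1, stood at 305 ± 21.5 in EtOH Vehicle and 537 ± 185 in EtOH IMC, a difference of 0.75 (SE 0.31, adjusted p = 0.089). For Id2 that difference was 0.40 (SE 0.26, adjusted p = 0.29) and for the inhibitory Smad6 it was 0.03 (SE 0.26, adjusted p = 0.95).

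Among 8 genes of other inputs to hepcidin, 1 was called with ethanol in IMC mice and 1 with IMC averaged over both diets. Of all genes tested, 16.5% and 28.2% were called in these contrasts. The interleukin 6 receptor Il6ra fell with ethanol in IMC mice (-0.69, SE 0.15, adjusted p = 0.0052), and Cebpa, a hepatocyte factor that acts on the Hamp promoter, fell with IMC averaged over both diets (-0.33, SE 0.10, adjusted p = 0.021). Stat3 differed with IMC in ethanol-fed mice by 0.47 (SE 0.25, adjusted p = 0.19). Library 12 of Pair Vehicle stood apart in this list, with Stat3 at 3305 against 1236 to 1379 in the other 3 mice of its group and Socs3, the feedback inhibitor of STAT3, at 591 against 56.0 to 104. Its Hamp level was 9942, against 2757 to 11122 in the other 3 mice of its group. A link of Stat3 or Socs3 to Hamp was not tested.

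Among 22 tested genes of iron uptake, storage and export, 7 were called with IMC in ethanol-fed mice and 6 with ethanol in vehicle mice. Of all genes tested, 21.5% and 11.9% were called in these contrasts. The ferritin heavy chain Fth1 stood at 9514, 10968, 10619.6 and 10808 normalized counts in EtOH Vehicle libraries 1, 3, 5 and 7 and at 19554, 15387, 16529 and 19142 in EtOH IMC libraries 9, 11, 13 and 15, without overlap. Fth1 rose with IMC in ethanol-fed mice (0.75, SE 0.13, adjusted p = 0.00071) and averaged over both diets (0.57, SE 0.09, adjusted p = 0.00024). The ferritin light chain Ftl1 rose with IMC in ethanol-fed mice (0.60, SE 0.12, adjusted p = 0.0026), averaged over both diets (0.50, SE 0.09, adjusted p = 0.00046) and in pair-fed mice (0.40, SE 0.12, adjusted p = 0.048). The call of Ftl1 in pair-fed mice stood in only 4 of 16 fits without 1 library. It was lost without EtOH Vehicle library 1, 3, 5 or 7, Pair IMC library 2, 4 or 6, Pair Vehicle library 10, 12 or 16, or EtOH IMC library 13 or 15, with values between 0.33 and 0.44. With ethanol in vehicle mice Fth1 differed by -0.04 (SE 0.13, adjusted p = 0.86) and Ftl1 by 0.03 (SE 0.12, adjusted p = 0.90). Tfrc, with hairpins in the 3′ UTR, and both ferritin genes, with a hairpin in the 5′ UTR, were higher with IMC averaged over both diets. Slc40a1, also with a hairpin in the 5′ UTR, differed by 0.16 in that contrast and was not called. These are RNA levels, and translation was not measured here.

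Steap3, a reductase that readies iron from transferrin for transport, rose with ethanol in vehicle mice (0.80, SE 0.12, adjusted p = 0.00062), from 202 ± 9.28 to 353 ± 22.4 normalized counts, and fell with IMC in ethanol-fed mice (-0.75, SE 0.12, adjusted p = 0.00033), to 211 ± 28.2. Averaged over both diets, Steap3 fell with IMC by 0.55 on the log2 scale (SE 0.08, adjusted p = 0.00013). Aco1, the iron regulatory protein that also serves as cytosolic aconitase, rose with ethanol in vehicle mice (0.34, SE 0.09, adjusted p = 0.025) and fell with IMC in ethanol-fed mice (-0.36, SE 0.09, adjusted p = 0.0093). The mitochondrial iron carrier Slc25a28 fell with ethanol in vehicle mice (-0.67, SE 0.13, adjusted p = 0.0040), and the reductase Steap2 fell with ethanol in vehicle mice (-0.55, SE 0.16, adjusted p = 0.031) and in IMC mice (-0.80, SE 0.16, adjusted p = 0.0026). Fbxl5, which marks iron regulatory protein 2 for breakdown, fell with ethanol in vehicle mice (-0.38, SE 0.09, adjusted p = 0.015), as did the iron chaperone Pcbp2 (-0.38, SE 0.09, adjusted p = 0.016), which also fell with ethanol in IMC mice (-0.42, SE 0.09, adjusted p = 0.0061). The importer Slc39a14 differed by 0.20 with IMC in ethanol-fed mice (SE 0.20, adjusted p = 0.50), and the ferroxidase Cp by 0.04 (SE 0.10, adjusted p = 0.82). In pair-fed mice the iron-sulfur scaffold Iscu was higher with IMC (0.25, SE 0.08, adjusted p = 0.047).

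Several of these calls rested on single mice or on the scale. On the deposited scale, Fbxl5, Pcbp2 and Steap2 were not called with ethanol in vehicle mice (-0.19, -0.19 and -0.36), nor Pcbp2 in IMC mice (-0.23). With ethanol in vehicle mice, Aco1 was lost without EtOH Vehicle library 1, 3 or 5 or Pair Vehicle library 12 (values between 0.31 and 0.34), and Steap2 without EtOH Vehicle library 3, 5 or 7 or Pair Vehicle library 14 or 16 (between -0.53 and -0.44). Fbxl5 was lost without EtOH Vehicle library 7 or Pair Vehicle library 14 (-0.32 in both), and Pcbp2 without EtOH Vehicle library 5 or Pair Vehicle library 14 (-0.33 and -0.31). The call of Iscu in pair-fed mice stood in only 4 of 16 fits without 1 library, those without Pair Vehicle library 12 or EtOH IMC library 9, 11 or 15, and was lost in the others with values between 0.22 and 0.28.

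Among 18 tested genes of heme handling, 6 were called with IMC in ethanol-fed mice and 4 with ethanol in each drug group. Of all genes tested, 21.5% were called with IMC in ethanol-fed mice, and 11.9% and 16.5% with ethanol in vehicle and IMC mice. Alas1, the rate-limiting enzyme of heme synthesis in liver, stood at 1198, 3873, 2955 and 3181 normalized counts in Pair Vehicle libraries 10, 12, 14 and 16 and at 4183, 5160, 5298 and 7534 in EtOH Vehicle libraries 1, 3, 5 and 7. Alas1 rose with ethanol in vehicle mice (1.08, SE 0.29, adjusted p = 0.024) and in IMC mice (1.61, SE 0.29, adjusted p = 0.0015). The first call of Alas1 was lost without EtOH Vehicle library 5 or 7 or Pair Vehicle library 10, with values between 0.71 and 1.09. Library 10 was the lowest of its group for both Hamp and Alas1.

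The heme transporter Slc48a1 rose in all 4 pairwise comparisons: with IMC in pair-fed mice (0.46, SE 0.10, adjusted p = 0.0098), with IMC in ethanol-fed mice (0.77, SE 0.10, adjusted p = 8.19e-05), with ethanol in vehicle mice (0.48, SE 0.10, adjusted p = 0.0060) and with ethanol in IMC mice (0.79, SE 0.10, adjusted p = 0.00011). Its group means ran from 416 ± 43.3 normalized counts in Pair Vehicle to 995 ± 147 in EtOH IMC. Blvrb, a biliverdin reductase that acts after heme breakdown, rose with ethanol in vehicle mice (0.47, SE 0.12, adjusted p = 0.020) and in IMC mice (1.05, SE 0.12, adjusted p = 4.71e-05) and with IMC in ethanol-fed mice (0.76, SE 0.12, adjusted p = 0.00040). The first of these calls of Blvrb was lost without EtOH Vehicle library 7 or Pair Vehicle library 12 (values between 0.40 and 0.41). Hmox1, the inducible heme oxygenase, rose with IMC averaged over both diets (0.60, SE 0.19, adjusted p = 0.023), a call lost without EtOH Vehicle library 5 (0.53). Heme synthesis enzymes Alad (-0.49, SE 0.12, adjusted p = 0.0070) and Uros (-0.49, SE 0.10, adjusted p = 0.0027) fell with IMC in ethanol-fed mice, while ferrochelatase, Fech, which inserts the iron, rose with IMC in each diet (pair-fed 0.29, SE 0.08, adjusted p = 0.026; ethanol-fed 0.30, SE 0.08, adjusted p = 0.011). The call of Fech in pair-fed mice was lost without Pair IMC library 2, 4 or 6 or Pair Vehicle library 10 or 16, with values between 0.23 and 0.29. Hpx, the plasma carrier of heme, differed by 0.13 with IMC in ethanol-fed mice (SE 0.17, adjusted p = 0.61).

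**Figure D5:**
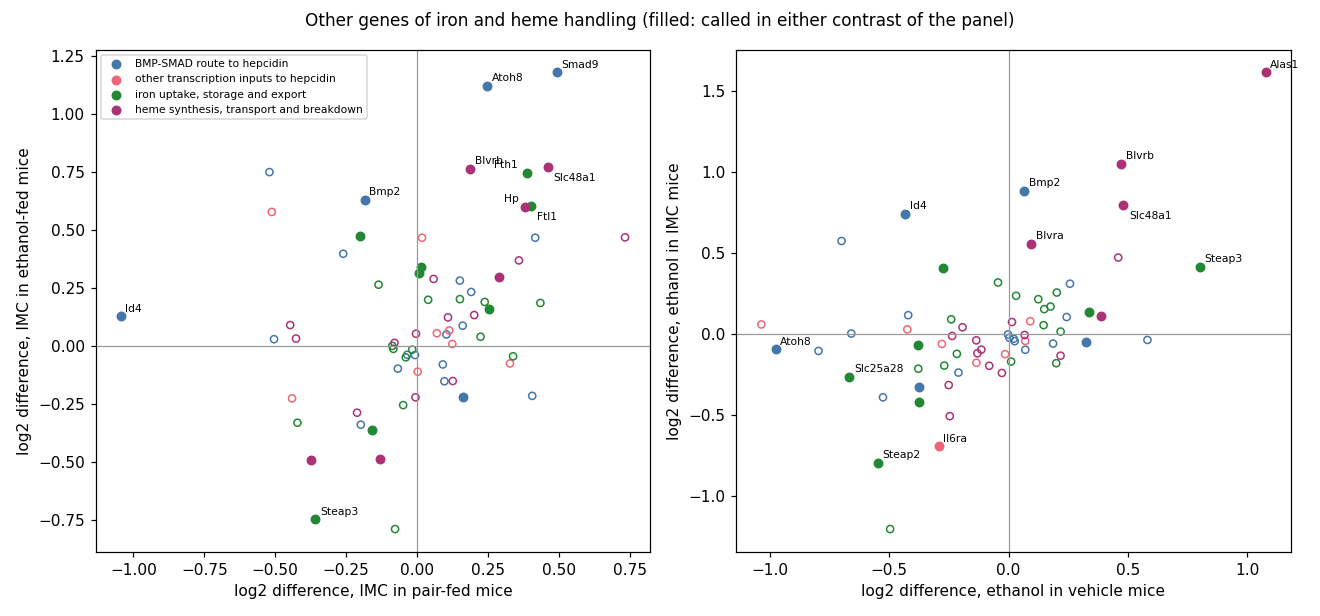
Log2 differences of the 68 other tested genes of iron and heme handling; left, IMC in pair-fed against IMC in ethanol-fed mice, right, ethanol in vehicle against ethanol in IMC mice, with filled points for genes called in either contrast of a panel and colours for the 4 lists. The 2 contrasts of a panel share no mice; Atoh8 and Smad9 lie highest at left (1.12 and 1.18) and Alas1 highest at right (1.61).

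Over the 16 libraries, which share groups, diets and library numbers, the levels most like Hamp on the log2 scale were those of Ptpn2 (Pearson r 0.862), Rps26 (0.853), Ciao1 (0.842), Syf2 (0.840) and Gcgr (0.819), among 12521 other genes. Of the other 9 iron genes above, Id1 came closest to Hamp, in place 13 (r 0.799), then Smad7 (r 0.599) and Slc40a1 (r 0.535), while Hamp2 was near 0 (r 0.0087). The differences of the genes most like Hamp were much smaller than its own: Rps26 differed by 0.51 (SE 0.08) and Ptpn2 by 0.19 (SE 0.09) with IMC in ethanol-fed mice. The levels most like Tfrc were those of Tmem37 (r 0.879), Scamp5 (0.861), Gusb (0.859), Arpp19 (0.858) and Rab27a (0.855). Hfe came in place 98 for Tfrc (r 0.755), and Hamp2 lay on the opposite side (r -0.58).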

How the data were processed

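Liver RNA was sequenced by the authors as directional TruSeq libraries. Per the study's methods, reads were trimmed with Trim Galore, checked with FastQC, aligned to mm10 with STAR and normalized by the upper quantile in edgeR. The counting tool and its strand setting are not given in the sources used here, and the methods describe single-end reads where the labels describe paired ends. The deposited signal values were normalized read counts per gene. Division by the value of 1 read, between 0.906 and 1.18, brought 100% of them to whole reads in every library (tolerance 0.01), with library 15 of EtOH IMC the least secure. Of 27212 rows, 24082 genes were kept, 1 row per Ensembl ID. The 430 IDs listed with several symbols had identical values on each row. The study's other measurements were not analysed here.

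All 16 libraries were divided by a median ratio over all 16, between 0.940 and 0.945 in pair-fed and between 1.07 and 1.08 in ethanol-fed libraries. Genes reaching 10 in 4 or more libraries, 12522 in all, entered limma 3.58.1 (R 4.3.3) as log2(value + 1), in a model of the 4 group means with a mean-variance trend. Tests were two-sided, with Benjamini-Hochberg adjustment over all genes tested and a threshold of 0.05, and a gene past it is said to be called. Log2 differences on this scale understate the change of low genes. P-values measure the spread between 16 mice, 4 in each group. Replicates of a group differed by a chi-square of at least 5.60 per gene, so no pair within a group was counted as 1 sample. The fit was tested on simulated data.

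The genes, lists, tests and alternatives were chosen with earlier results of these data known. Of the other iron genes, up to 4 called in each direction of each contrast were named by size of the log2 difference, with Hjv, Tmprss6, Bmp2, Fth1, Ftl1, Cebpa, Stat3, Id2, Id3, Smad6, Slc39a14, Cp and Hpx whether called or not, and the 5 genes most correlated with Hamp and with Tfrc. Ethanol averaged over vehicle and IMC was computed after the library numbers had been seen. Flvcr1 was not analysed here. Positions and transcripts are from GENCODE vM21 on GRCm38 and promoter sequences from RefSeq, which held 6 of the 10 genes. Alternatives were pseudocounts of 0.1 and 5, no filter, a mean of at least 100, the deposited scale, only the libraries of a comparison, omission of 1 library at a time, and whole reads tested with DESeq2 1.42.0 and edgeR 4.0.16. The tests on whole reads without library 15 were chosen after seeing the data. Figures were drawn with matplotlib 3.10.9.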

Additional observations from a re-analysis of the deposited data

Results flagged for a closer look

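Of 40 groups of 4 mice examined (10 genes in 4 groups), 3 held a mouse far from the others by Dixon's ratio, where chance gives about 1 in 20. Hamp stood at 2757 normalized counts in Pair Vehicle library 10, far below the other 3 mice of its group. Tfr2 stood at 4206 in Pair IMC library 4, below its group, and Slc40a1 at 3153 in EtOH IMC library 13, above its group.

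The IMC effects of the pair-fed and the ethanol-fed mice differed in limma's test of the difference for Hamp (3.31 on the log2 scale, SE 0.66) and for Id1 (2.15, SE 0.50). Both genes had been chosen with these results known, and the diets' IMC effects and the library numbers cannot be told apart here.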

How the results depend on the processing

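No paired analysis was possible because the groups share no replicate numbers. Of the 10 genes, differences that were called kept their sign in all 398 values under alternatives, while those not called changed sign in 42 of 1190, in 11 differences between 0 and 0.18 in size (among them Bmp6 with IMC in pair-fed mice and with ethanol in vehicle mice, Id1 averaged, Smad7 with IMC and the Hamp2 difference between diets). Of all 1588, 6 moved by more than the spread between mice, those of Tfr2, Hfe and Trf with ethanol on the deposited scale: Tfr2 0.20 and 0.25, Hfe 0.47 and 0.37, Trf 0.20 and -0.52 in vehicle and IMC mice. Over 1761 values of other iron genes that were called, 0 changed sign, 175 lost the call and 1586 stayed on their side. Counts of called genes moved by over 1.5 times as follows; the cause was not tested. Among all genes, IMC in pair-fed mice gave 691 with only the libraries of the comparison (1188 in the fit of all libraries). The difference between diets (139) gave 80 with no filter, 339 with DESeq2, 72 with edgeR without library 15 and 266 with DESeq2 without it. On the deposited scale ethanol gave 3000 in vehicle mice (1491) and 3624 in IMC mice (2064), and edgeR without library 15 gave 1344 in IMC mice. Among the 68 other iron genes, IMC in pair-fed mice (5) gave 3 with no filter, 2 with only the libraries of the comparison, 9 with DESeq2 and 11 with DESeq2 without library 15. The difference between diets (0) gave 3 with DESeq2 and 2 without library 15, and ethanol in IMC mice (12) gave 19 on the deposited scale.

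Leaving out 1 library in turn, counts over all genes ranged from 537 (without Pair IMC library 4; 543 without library 6) to 1443 for IMC in pair-fed mice and from 1992 to 2823 for IMC in ethanol-fed mice. For the difference between diets they ranged from 54 to 164, and were between 54 and 84 without any 1 EtOH Vehicle library, Pair IMC library 2, 6 or 8, Pair Vehicle library 12 or 14, or EtOH IMC library 13 or 15. They ranged from 803 (without EtOH Vehicle library 5; 974 without Pair Vehicle library 14) to 1597 for ethanol in vehicle mice, from 1368 (without EtOH IMC library 15) to 2213 for ethanol in IMC mice, and from 2955 to 3739 for IMC averaged over both diets (3528). Counts of other iron genes for IMC in pair-fed mice ranged from 2 (without Pair IMC library 4 or 6 or Pair Vehicle library 16) to 8 (without Pair Vehicle library 12), with 3 without Pair IMC library 2, EtOH IMC library 13 or any 1 EtOH Vehicle library. They ranged from 0 to 1 for the difference between diets, from 8 (without EtOH Vehicle library 7) to 14 for ethanol in vehicle mice and from 8 (without Pair IMC library 6 or EtOH IMC library 15) to 15 for ethanol in IMC mice. Depth limits Bmp6 and Id1 most, whose lowest levels were 23.2 and 35.4 normalized counts in a library.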
